A study of Homo sapiens with 6 samples.

Results

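The genes described here are the very long protein-coding genes of A375 cells, those whose record on the GRCh38 genome spans 500000 bp or more from its start to its end. Of the 58243 gene identifiers counted, 320 belonged to protein-coding genes of that length. A further 17 were left out because their symbols start with those of listed families (SEMA, PLXN, EPHA, EPHB, SLIT, ROBO, UNC5, CDH, ITG, COL, EPB41, RAB, VPS, SNX, KDM and DCC), and 81 were left out because at least 1 library held fewer than 10 of their reads. The remaining 222 genes, all of which entered the test, are called the long genes below. They were chosen by record length and by the raw reads in each library, and the comparison with length was proposed with results of these libraries in view, so the counts below describe the long genes and are not independent support for a relation with length.

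A375 is a human melanoma cell line. The study compared cells stably transfected with an empty vector (EV, libraries B1, B2 and B3) with cells stably transfected with a plasmid for human HA-tagged PRL3, a protein phosphatase encoded by PTP4A3 (libraries B9, B10 and B11), and all cells were kept in 100 µg/ml hygromycin B. All cells received 500 µM 4-thiouridine (4sU) for 20 min, and RNA that had taken up this uridine analogue was biotinylated, pulled down, depleted of ribosomal RNA and sequenced by strand (4sU-seq). The study asked how PRL3 changes transcriptional elongation. The labels do not say whether the stably transfected cells are single clones or whether the 3 libraries of a group came from separate cultures, so p-values measure the spread between these libraries, and an effect of PRL3 cannot be told apart from other differences between the EV and PRL3 cells. In bulk RNA, fewer cells making a transcript and less transcript per cell cannot be told apart either.

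Genes of this length owe their size to introns. RNA polymerase II needs hours to cross such a gene, so a short 4sU pulse labels only a stretch of each transcript, and most of that stretch is intron. Many of these genes encode neuronal adhesion molecules, synaptic scaffolds, large cytoskeletal linkers and developmental transcription factors, and several lie at common fragile sites, regions that break when replication is slowed. The counts are of reads that overlap annotated exons on the expected strand, so intronic reads of a long gene are not in its value.

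The 222 long genes spanned 501.4 to 2298.8 kb, with 44 of 1 Mb or more and 5 of 2 Mb or more. Their exons together made up a median of 11930.5 bases in 29 exons, which was a median of 1.59% of the record. Protein-coding genes of 10 to 50 kb held a median of 5084.5 exonic bases, or 21.1% of the record. Per kilobase of exon, the median level of the long genes was 53.0 normalized counts, against 309 for genes of 10 to 50 kb and 456 for genes under 10 kb. The RefSeq table held 221 of them by symbol, and its record also reached 500 kb for 205. In the 6 libraries, 36532207 to 57952035 reads were counted on genes. PTP4A3 rose from 217 ± 59.4 normalized counts (SD, n = 3) in EV to 24387 ± 3796 (SD, n = 3) in PRL3, as the labels give it. Of the melanoma markers, SOX10, S100B, PAX3 and MITF were present in every library and TYR and MLANA had at most 2 reads in any, with PMEL at 26 to 61. PTPRC and CD3E of leukocytes and KRT5 of keratinocytes had at most 12 reads in any library, while KRT14 had 328 to 1338. Of the fibroblast markers, PDGFRB had 394 to 977 reads, LUM 67 to 102, COL1A1 29 to 80 and DCN 17 to 55.

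Promoters are shown for 5 of the long genes whose RefSeq start lies within 1000 bases of the outer end of the record, to let the sequence just before the start be read beside the change of each gene. NRXN3 and PTPRD were among the genes highest in PRL3 relative to EV, THSD4 and CSMD2 among those lower, and HIVEP3 had the highest mean count of those not called. Each line gives the 250 bases before the RefSeq start (GRCh38.p14), 5′ to 3′ on the strand of the gene. Capitals mark the letters GGGCGG of the GC box or its reverse complement CCGCCC.
NRXN3, chr14:78170123-78170372, plus strand: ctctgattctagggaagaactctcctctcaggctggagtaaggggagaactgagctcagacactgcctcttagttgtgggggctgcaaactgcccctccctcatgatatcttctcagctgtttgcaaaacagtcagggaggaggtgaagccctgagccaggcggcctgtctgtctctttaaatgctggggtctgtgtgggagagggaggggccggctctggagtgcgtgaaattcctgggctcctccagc
PTPRD, chr9:10613003-10613252, minus strand: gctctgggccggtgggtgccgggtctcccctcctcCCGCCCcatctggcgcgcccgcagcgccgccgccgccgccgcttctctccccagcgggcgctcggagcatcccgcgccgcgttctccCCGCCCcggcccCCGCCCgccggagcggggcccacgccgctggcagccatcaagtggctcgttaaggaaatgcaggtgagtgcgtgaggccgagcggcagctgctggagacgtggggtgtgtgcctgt
THSD4, chr15:71096644-71096893, plus strand: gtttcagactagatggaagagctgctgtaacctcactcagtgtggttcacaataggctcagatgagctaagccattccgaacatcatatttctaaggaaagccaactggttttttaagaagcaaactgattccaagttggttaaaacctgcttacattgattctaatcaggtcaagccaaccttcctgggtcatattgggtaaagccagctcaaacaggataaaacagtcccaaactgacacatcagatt
CSMD2, chr1:34165843-34166092, minus strand: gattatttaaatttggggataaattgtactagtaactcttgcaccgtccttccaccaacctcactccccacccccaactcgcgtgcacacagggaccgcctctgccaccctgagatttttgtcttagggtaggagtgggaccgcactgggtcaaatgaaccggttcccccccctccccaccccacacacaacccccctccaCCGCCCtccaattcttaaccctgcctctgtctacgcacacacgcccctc
HIVEP3, chr1:42035935-42036184, minus strand: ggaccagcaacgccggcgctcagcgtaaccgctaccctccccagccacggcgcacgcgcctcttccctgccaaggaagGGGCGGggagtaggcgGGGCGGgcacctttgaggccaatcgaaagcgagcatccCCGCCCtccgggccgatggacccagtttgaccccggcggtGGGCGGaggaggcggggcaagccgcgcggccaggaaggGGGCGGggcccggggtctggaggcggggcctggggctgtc
NRXN3 and THSD4 held no such letters and 3 and 1 CpG dinucleotides. CSMD2 held 1 match and 9 CpGs, and PTPRD and HIVEP3 held several matches and 32 and 27 CpGs. These 5 promoters, picked by p or mean count, are too few to relate the letters to the change of a gene. Over the 187 long genes with a RefSeq promoter, 50.8% held GGGCGG on either strand, against 56.7% of 15315 protein-coding promoters and 42.4% of all 27195. The share was 31.3% of the 67 promoters of genes higher in PRL3, 60.0% of the 15 of lower genes and 61.9% of the 105 of genes not called. The median number of CpGs was 14 in the promoters of higher genes and 20 in those of genes not called. TATAAA was found in 8.56% of the long genes' promoters and 9.24% of protein-coding promoters, CACGTG in 6.95% and 7.84%, and CATGTG in 6.95% and 7.08%, each read on both strands. CACGTG and CATGTG are forms of the E-box, which MITF binds, and may share letters where they lie side by side. Only 114 of the 187 RefSeq starts lay within 1000 bases of the outer start of the record, so many of these windows belong to a start inside the gene. A match is a description of the letters and was not tested against the fold changes.

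More of the long genes were higher in PRL3 than lower with TMM scaling, and fewer when libraries were scaled to all uniquely aligned reads (28 higher and 43 lower). Over all 23884 genes tested, that scaling called 1952 higher and 8473 lower. Those were a smaller share higher and a larger share lower than among the long genes. With TMM scaling, of the 222, 76 (34.2%) were higher and 17 (7.66%) lower when edgeR's quasi-likelihood p-values were adjusted by Benjamini-Hochberg over all 23884 genes tested (threshold 0.05), and 129 were not called. Over all genes tested, 20.0% were higher and 22.7% lower, and over the 14443 protein-coding genes tested 15.2% and 31.6%. Over the 12788 protein-coding genes under 500 kb chosen with the same rule, 15.5% were higher and 34.3% lower, so the long genes were called higher more often and lower less often than each background. Their median log2 fold change of PRL3 over EV was 0.38 (-0.089 when scaled to all uniquely aligned reads, which moved the median of all genes from 0.11 to -0.36), with quartiles of -0.06 and 0.77 and a range from -2.22 to 3.10, and it was above 0 for 161 genes. The median was 0.11 over all genes tested and -0.40 over protein-coding genes under 50 kb. The groups did not overlap for 137 long genes (61.7%), which is close to the 56.3% of all genes, 58.9% of all protein-coding genes and 61.1% of the shorter protein-coding genes, so the long genes differed from other genes in the direction of their changes and not in how often the groups were apart.

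The direction shifted with length in steps. The share called lower was 52.9% of 2472 genes under 10 kb, 39.6% of 5506 genes of 10 to 50 kb, 24.1% of 2294 genes of 50 to 100 kb, 17.0% of 1625 genes of 100 to 200 kb, 8.31% of 891 genes of 200 to 500 kb and 7.66% of the long genes. The share called higher ran the other way, from 9.34% under 10 kb to 26.5% at 200 to 500 kb and 34.2% at 500 kb or more. The median log2 fold change rose at each step, through -0.69, -0.29, -0.06, 0.07 and 0.21 to 0.38. The long genes' median minus that of protein-coding genes under 50 kb was 0.78 on the log2 scale. Every scaling changes the zero of this scale but not the difference between classes, which stayed between 0.76 and 0.85 under the other scalings, tools, filters and libraries left out.

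**Figure D1:**
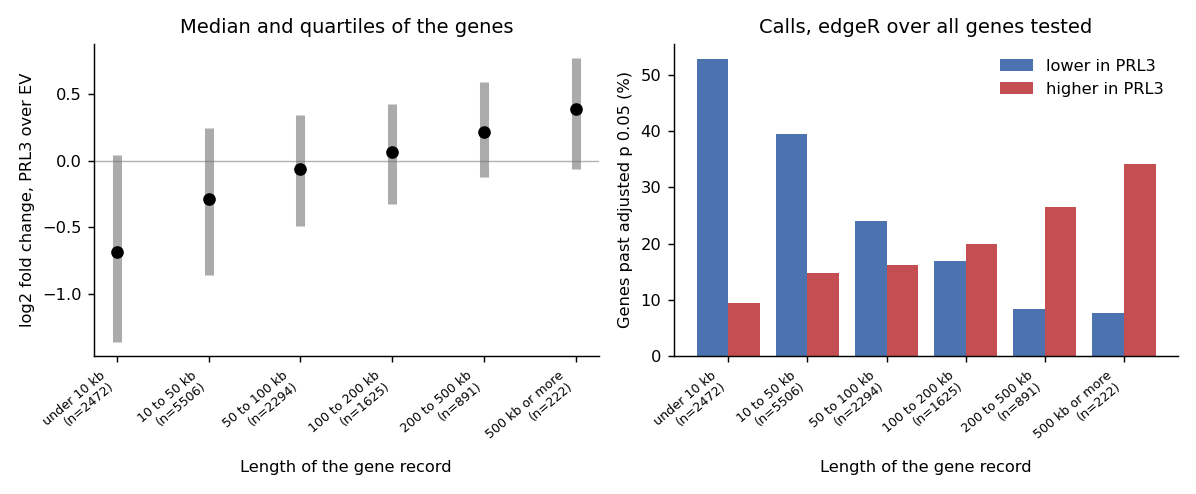
Protein-coding genes with at least 10 reads in every library, by the length of the gene record on the x axis of both panels, with TMM scaling. On the left, points are medians and bars the quartiles of the log2 fold change of PRL3 over EV, with medians from -0.69 under 10 kb to 0.38 at 500 kb or more; on the right, bars are the percent of genes called lower and higher by edgeR, and the lower share falls from 52.9% to 7.66% while the higher share rises from 9.34% to 34.2%.

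Longer genes also tend to have more exonic bases, lower levels and lower GC content, so the classes were read within ranges of these. Among genes of the highest mean level, the median was -1.12 for 857 genes under 10 kb and 0.58 for 38 long genes, of which 60.5% were called higher. In the lowest level class it was -0.36 for 916 genes under 10 kb and 0.31 for 119 long genes. Split by exonic bases, most long genes fell in the class with the most exonic bases (182 of 222), where their median was 0.44 against -0.05 for 46 genes under 10 kb and -0.07 for 1319 genes of 10 to 50 kb. In the class with the fewest exonic bases the median was -0.79 under 10 kb and -0.09 for 11 long genes, and in the middle class -0.38 and 0.02 (29 long genes). Split by the GC content of the exons, the median of genes under 10 kb was 0.14, -0.40 and -0.90 in the low, middle and high class and that of the long genes 0.45 (n = 117), 0.37 (n = 86) and 0.06 (n = 19). The long genes were above the genes under 10 kb in all 9 of these comparisons, but both groups moved with exonic bases and GC content, and in the low-GC class the difference was smallest. Genes of 200 to 500 kb had higher medians than the long genes in the classes with the fewest and with middle exonic bases. These were -0.04 (n = 67) against -0.09, and 0.12 (n = 198) against 0.02. In the remaining classes the long genes had the higher median. What part of these differences follows from level, exonic bases or GC content was not tested.

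Within the long genes the same order was seen up to 1.5 Mb. The median log2 fold change was 0.25 for 125 genes of 500 to 750 kb (33 higher, 10 lower), 0.51 for 53 genes of 750 kb to 1 Mb (24 higher, 6 lower), 0.64 for 33 genes of 1 to 1.5 Mb (14 higher, 1 lower) and 0.55 for 11 genes of 1.5 Mb or more (5 higher, none lower). Across the 222 genes the log2 fold change had a Spearman correlation of 0.237 with length, 0.229 with exonic bases, 0.142 with mean level and -0.123 with exon GC content. Over the 13010 protein-coding genes chosen with the same rule at every length, the correlation was 0.323 with length and 0.332 with exonic bases. There it was -0.196 with mean level and -0.369 with exon GC content, so length did not have the largest. These are weak correlations across genes that share the same 6 libraries, and genes are not independent replicates. Calls followed the level more closely than the fold change did. Of the 56 long genes with the lowest levels 6 were called higher, and of the 56 with the highest levels 31, while the median log2 fold changes were 0.26 and 0.45.

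**Figure D2:**
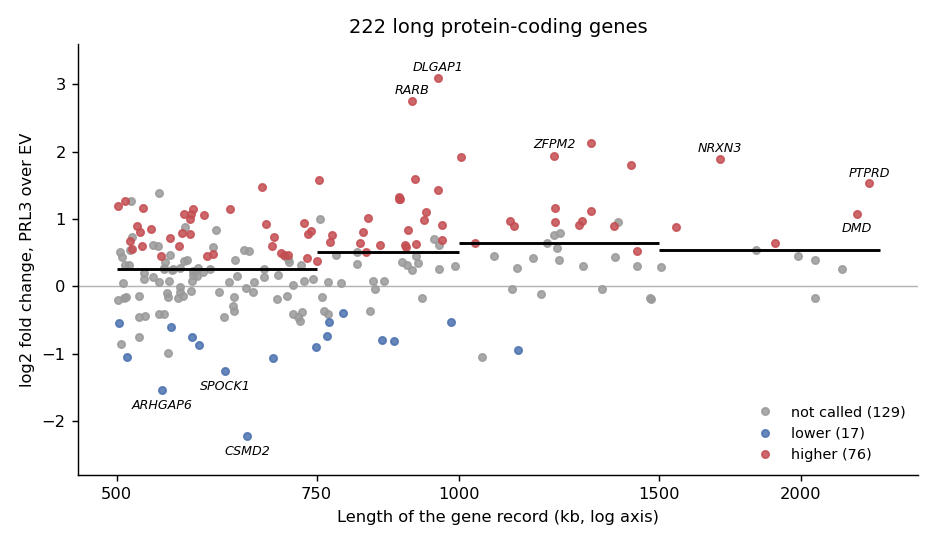
Each point is 1 of the 222 long genes, with the length of its record on a log axis and its log2 fold change of PRL3 over EV with TMM scaling; red, blue and grey mark genes called higher (76), lower (17) and not called (129), and black lines are the medians of 4 length ranges (0.25, 0.51, 0.64 and 0.55). Only 1 gene of 1 Mb or more was called lower.

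As a share of the reads on protein-coding genes, the long genes gave the same picture without a fit. The long genes took 0.476%, 0.473% and 0.560% of the reads on protein-coding genes in EV B1, B2 and B3, and 1.11%, 0.997% and 1.04% in PRL3 B9, B10 and B11. The 3 PRL3 libraries were all above the 3 EV libraries. Genes under 10 kb took 30.1%, 33.0% and 30.9% of the same reads in EV and 20.6%, 22.9% and 21.7% in PRL3. Against all uniquely aligned reads, the long genes' share did not separate the groups. The long genes held 210994, 212155 and 299525 of 72281955, 72430284 and 106383606 such reads in EV. In PRL3 they held 370576, 498202 and 339026 of 124810912, 163061738 and 120026737. The share of uniquely aligned reads on no annotated exon was 30.2%, 28.7% and 41.1% in EV and 69.1%, 62.8% and 66.9% in PRL3. The 6 libraries fell in the same order by the long genes' share of protein-coding reads and by the share of reads on no exon. In both, EV B2 was lowest, EV B3 highest of the EV libraries and PRL3 B9 highest of all. The part of this in the long genes' values was not tested.

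**Figure D3:**
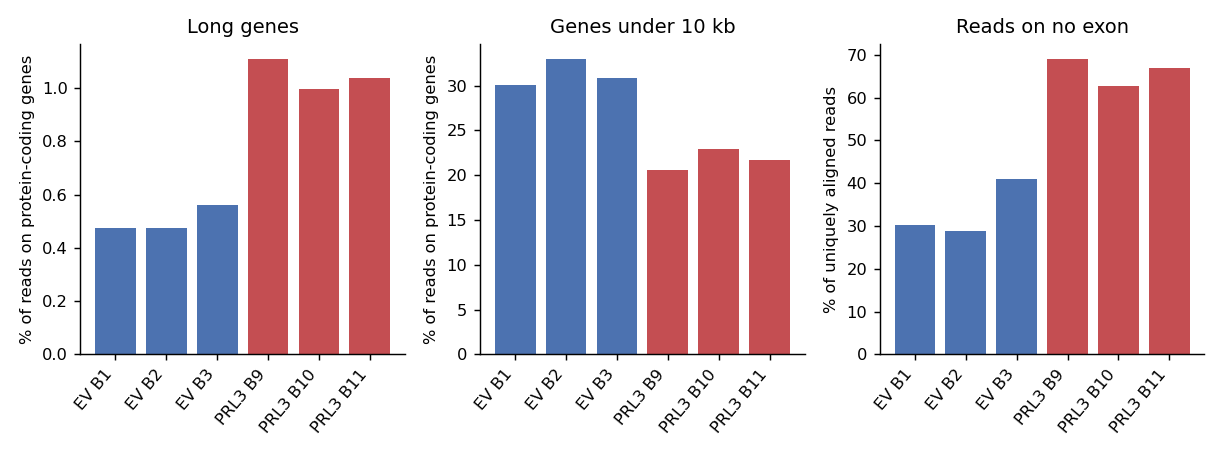
Bars are single libraries, EV in blue and PRL3 in red. The left and middle panels give the percent of reads on protein-coding genes that fell on the 222 long genes (0.473% to 1.11%) and on genes under 10 kb (20.6% to 33.0%), and the right panel the percent of uniquely aligned reads on no annotated exon (28.7% to 69.1%).

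Transcription factors and chromatin or RNA-binding proteins were the list with the highest median. Of 33, 17 were higher (51.5%, against 34.2% of all long genes and 20.0% of all genes) and 1 (CAMTA1) lower, with a median log2 fold change of 0.60. ZFPM2, a cofactor of GATA transcription factors (chr8:104590733-105804539), had 1877, 1639 and 1893 normalized counts in the EV libraries and 7143, 6758 and 6699 in the PRL3 libraries. It was picked among genes whose groups did not overlap, and the log2 fold change was 1.93 ± 0.146 (± standard error here and below, adjusted p = 4.88e-06). RARB, a nuclear receptor for retinoic acid (chr3:24687887-25597932), had 106, 126 and 225 normalized counts in EV and 1078, 993 and 1034 in PRL3. Its log2 fold change was 2.75 (± 0.265, adjusted p = 1.24e-05), with EV B3 the highest of the EV libraries. HDAC9, a histone deacetylase (chr7:18086949-19002416), had 1218, 894 and 1128 in EV and 3309, 2981 and 3484 in PRL3, a log2 fold change of 1.59. RUNX1, a transcription factor of blood cell formation (chr21:34787801-36004667), was one of the 5 long genes with the highest mean count, with 9101, 9847 and 12766 in EV and 24325, 24047 and 22846 in PRL3. Its log2 fold change was 1.17 (± 0.163), and the groups did not overlap. SOX5, a transcription factor of the SOX family that acts in melanocyte development, had 10969, 8720 and 11188 in EV and 17463, 14848 and 15814 in PRL3, a log2 fold change of 0.64 (adjusted p = 0.00479). FOXP1, NFIA, ZFHX3, ZBTB20, MECOM, GLIS3, SOX6, NPAS3, RORA, CDKAL1, RBMS3 and CREB5 were also higher, with log2 fold changes from 0.49 to 1.33.

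Genes of synaptic adhesion and neurite outgrowth came next. Of 27, 14 were higher (51.9%) and 1 lower, with a median of 0.55. NRXN3, a presynaptic neurexin (chr14:78170373-79868291), had 429, 399 and 356 normalized counts in EV and 1440, 1444 and 1507 in PRL3. The log2 fold change was 1.89 (± 0.170, adjusted p = 9.68e-06), and the spread within each group was small beside the difference. PTPRD, a receptor tyrosine phosphatase and the longest of the long genes (chr9:8314246-10613002), had 719, 740 and 482 in EV and 1912, 1987 and 1702 in PRL3, a log2 fold change of 1.53. Its relative PTPRG rose by less, with a log2 fold change of 0.43. ADGRL3, a latrophilin that binds adhesion partners across the synapse (chr4:61200326-62078335), was the lower one, with 564, 520 and 746 in EV, 256, 388 and 399 in PRL3 and a log2 fold change of -0.81 (adjusted p = 0.0133). TENM2, SDK1, NRG1, NEGR1, KIRREL3, ADGRL2, NTM, NLGN1, TENM1 and IL1RAPL1 were higher, from 0.51 to 1.29.

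Of 28 genes of the cytoskeleton and its regulation, 13 were higher (46.4%) and 1 lower, with a median of 0.51. DLGAP1, a postsynaptic scaffold protein (chr18:3496032-4455307), had the largest log2 fold change of the long genes, from 20.7, 59.0 and 54.6 normalized counts in EV to 445, 393 and 324 in PRL3. The value was 3.10 with a standard error of 0.363 (adjusted p = 2.95e-05). NAV3, a neuron navigator that binds microtubules, had 944, 669 and 865 in EV and 2231, 1722 and 2147 in PRL3, a log2 fold change of 1.30. DMD, which encodes dystrophin, the link between actin and the membrane complex of muscle (chrX:31097677-33339609), had 687, 642 and 712 in EV and 1458, 1370 and 1493 in PRL3. Its log2 fold change was 1.08 (± 0.159, adjusted p = 0.000149), and the other dystrophin family member among the long genes, UTRN, rose by 0.60. DOCK1, an exchange factor for Rac, had 6373, 6533 and 6320 in EV and 8760, 8980 and 8608 in PRL3, a log2 fold change of 0.45. ARHGAP6 (chrX:11117651-11665920), went the other way, with 240, 307 and 211 in EV, 81.3, 118 and 59.0 in PRL3 and a log2 fold change of -1.54 (± 0.324, adjusted p = 0.00191). DLC1, one of the 5 long genes with the highest mean count, which stood outside the list, had 6031, 5065 and 5923 in EV and 11197, 10901 and 9614 in PRL3, a log2 fold change of 0.90.

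**Figure D4:**
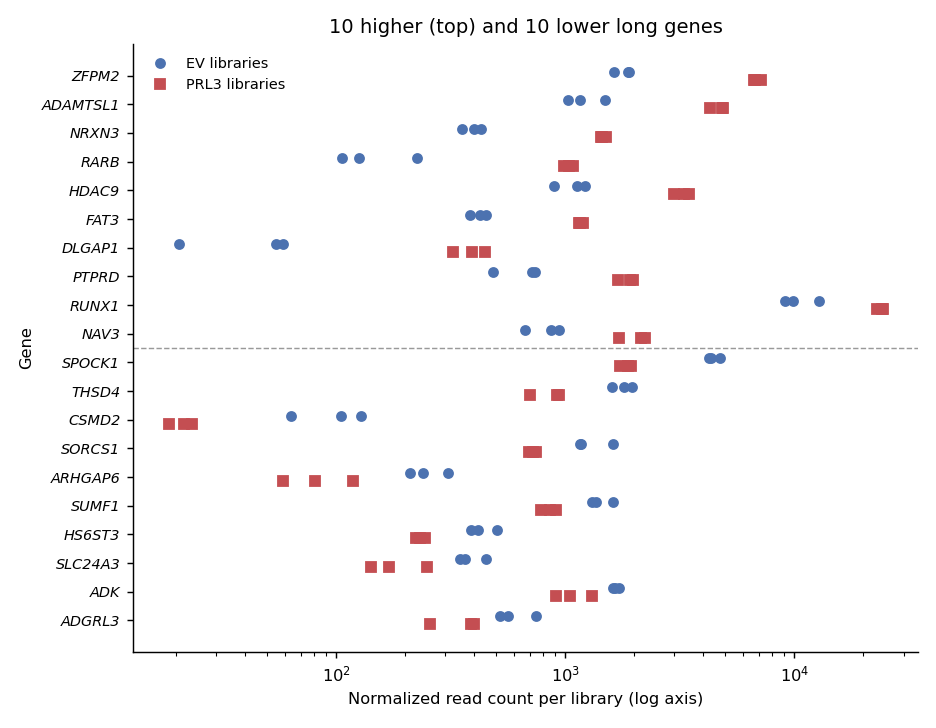
Normalized read counts per library on a log axis for the 10 higher (top) and 10 lower long genes with the smallest p among those whose groups did not overlap. Circles are the 3 EV and squares the 3 PRL3 libraries; these genes were picked for being apart, with DLGAP1 the most shifted of the higher ones (log2 fold change 3.10) and CSMD2 of the lower ones (-2.22).

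Signalling genes, channels and fragile site genes had smaller medians, which fell below 0 when libraries were scaled to all uniquely aligned reads. Of 32 kinases, phosphodiesterases and other signalling genes, 8 were higher (25.0%) and 3 lower (9.38%), with a median of 0.25. Over all genes tested the shares were 20.0% and 22.7%, and over the long genes 34.2% and 7.66%. PDE1C, a calmodulin-dependent phosphodiesterase of cyclic nucleotides, had 14163, 11760 and 13974 normalized counts in EV and 22869, 25972 and 27024 in PRL3, a log2 fold change of 0.93. AKAP6, an anchor of protein kinase A, had 360, 345 and 326 in EV and 891, 813 and 771 in PRL3, a log2 fold change of 1.26 (adjusted p = 0.000128). The 3 lower genes of this list were no kinases. They were SPOCK1, a secreted proteoglycan, HS6ST3, a heparan sulfate sulfotransferase, and GALNT13, which starts O-linked glycans. SPOCK1 (chr5:136975298-137598379) had the smallest p of the lower long genes, with 4319, 4732 and 4240 in EV and 1737, 1931 and 1874 in PRL3. Its log2 fold change was -1.26 (± 0.144, adjusted p = 2.47e-05). HS6ST3 had 418, 505 and 388 in EV and 223, 244 and 232 in PRL3, a log2 fold change of -0.91. Of 21 ion channel, transporter and neurotransmitter receptor genes, 3 were higher (GRIK2, RIMS2 and SLC8A1) and 3 lower (SLC24A3, KCNMA1 and RYR2), 14.3% each and below both shares over all genes, with a median of 0.31. GRIK2, a kainate receptor subunit, had 773, 680 and 603 in EV and 1288, 1312 and 1207 in PRL3, a log2 fold change of 0.89. RIMS2, a presynaptic release factor, had 82.8, 60.2 and 33.6 in EV and 156, 165 and 203 in PRL3, a log2 fold change of 1.58. SLC24A3, a potassium-dependent sodium/calcium exchanger, had 365, 450 and 348 in EV and 250, 171 and 143 in PRL3, a log2 fold change of -1.04. Of 19 long genes at common fragile sites, 7 were higher (36.8%) and none lower, with a median of 0.45. They included IL1RAPL1, a synaptic receptor-like protein, with 1248, 1082 and 1172 in EV and 2276, 2138 and 2092 in PRL3 (log2 fold change 0.89), and LRP1B, a lipoprotein receptor relative, with 252, 277 and 305 in EV and 380, 470 and 459 in PRL3 (log2 fold change 0.65). WWOX, the oxidoreductase gene of a fragile site on chromosome 16, had a log2 fold change of -0.05 (adjusted p = 0.863). The 78 long genes in none of the lists had 19 higher (24.4%), 8 lower (10.3%) and a median of 0.27.

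Outside the lists, ADAMTSL1, a secreted relative of the ADAMTS proteases without protease activity (chr9:17906563-18910950), had 1025, 1161 and 1487 normalized counts in EV and 4838, 4864 and 4275 in PRL3, a log2 fold change of 1.93 (adjusted p = 9.64e-06). FAT3, an atypical cadherin, had 452, 385 and 426 in EV and 1161, 1194 and 1151 in PRL3, a log2 fold change of 1.47. The lower genes outside the lists follow. THSD4, a matrix protein of microfibrils (chr15:71096952-71783383), had 1603, 1954 and 1804 in EV and 941, 923 and 701 in PRL3, a log2 fold change of -1.06 (± 0.174, adjusted p = 0.000325). CSMD2, a membrane protein of CUB and sushi domains (chr1:33513998-34165842), had 63.3, 105 and 129 in EV and 21.6, 18.6 and 23.6 in PRL3, the lowest log2 fold change of the long genes at -2.22 (± 0.456, adjusted p = 0.00164). SORCS1, a sorting receptor of the sortilin family, had 1162, 1618 and 1168 in EV and 695, 746 and 720 in PRL3, a log2 fold change of -0.87. SUMF1, the enzyme that activates sulfatases, had 1363, 1612 and 1308 in EV and 863, 910 and 788 in PRL3, a log2 fold change of -0.74. ADK, adenosine kinase, had 1649, 1623 and 1724 in EV and 913, 1313 and 1047 in PRL3, a log2 fold change of -0.61 (adjusted p = 0.0114). These lower genes were picked among those whose groups did not overlap, so their 3 PRL3 libraries lay below their 3 EV libraries by that choice. LRMDA, a gene of melanocyte differentiation that was chosen after its values were seen, was lower too, with 197, 153 and 96.4 in EV and 76.2, 71.4 and 84.7 in PRL3, a log2 fold change of -0.94 (adjusted p = 0.0444).

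Not all of the longest genes were called. Of the 11 genes of 1.5 Mb or more, 10 had a log2 fold change above 0 and 5 were called higher. Of the 5 longest genes, PTPRD and DMD rose and 3 did not pass the test. DLG2, a postsynaptic scaffold of 2173.3 kb, had 180, 131 and 147 in EV and 175, 197 and 176 in PRL3, a log2 fold change of 0.26 (± 0.273, adjusted p = 0.480). CSMD1 had 533, 438 and 439 in EV and 664, 672 and 517 in PRL3, a log2 fold change of 0.39 (adjusted p = 0.125). MACROD2, a hydrolase that removes ADP-ribose, had 102, 73.4 and 47.3 in EV and 54.6, 63.3 and 79.3 in PRL3, a log2 fold change of -0.17 (adjusted p = 0.769). The groups overlapped in all 3. DLG2 and MACROD2 had low levels, with 5.95 and 6.13 normalized counts per kilobase of exon against a median of 53.0 over the long genes. At the length limit, the genes just above it were KCNAB1 (501.4 kb, -0.20), PPFIA2 (501.6 kb, 1.20) and DNAH14 (503.0 kb, -0.55), and those just below it DIAPH3 (498.3 kb, 0.65), ITPR2 (497.8 kb, 0.16) and CACNA2D1 (497.5 kb, 0.24), given as log2 fold changes. At the read minimum, FGF14, RYR3 and ALDH1A2 had 10 reads in their lowest library, and OPCML, KHDRBS2, RIMS1 and ANKS1B had 9.

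Noncoding genes that lie wholly inside introns of the long genes give values that do not use the long genes' exonic reads. On the strand of the host, 144 were tested, and 58 of these were pseudogenes, whose reads may be shared with the genes they are copies of. A read of the host's unspliced RNA that overlaps such a nested gene counts on it, so host and nested RNA cannot be told apart there. Leaving out the pseudogenes, 86 nested genes in 56 hosts remained, of which 17 were higher and 1 lower, with a median log2 fold change of 0.78. Over all 6319 noncoding genes tested other than pseudogenes, 29.8% were higher and 2.33% lower. The 4570 of them outside the introns of the protein-coding genes examined had 25.7% higher, 2.78% lower and a median of 0.66. The 19.8% called higher among those inside the long genes was below both shares. The count of 17 was 27 without EV B3, 11 without PRL3 B9 and 10 without PRL3 B11, and the median was 1.18 without EV B3 and 0.32 when scaled to all uniquely aligned reads. For other nested genes, those inside shorter hosts, the median was 1.47 for 448 nested genes in hosts under 50 kb, 1.45 for 679 in hosts of 50 to 200 kb, and 1.34 for 284 in hosts of 200 to 500 kb, where 48.7%, 45.5% and 38.4% were called higher.

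Set against the exonic reads of their own hosts, the nested genes of long hosts differed less from the host than those of short hosts. The median of the nested gene's log2 fold change minus its host's was 1.82 in hosts under 50 kb, 1.53 at 50 to 200 kb, 1.12 at 200 to 500 kb and 0.59 at 500 kb or more. This difference does not depend on the scaling. The nested gene was above its host for 63 of 86 pairs in the long genes and 410 of 448 in hosts under 50 kb. The hosts' own medians, counted once per nested gene, were -0.29, 0.00, 0.18 and 0.32 in the same order. On the host's strand, exonic and nested values thus drew together with length from both sides. On the opposite strand the median difference was 1.29 (85 nested genes), 0.68 (135), 0.52 (44) and 0.13 (27). There the nested medians were 0.50, 0.77, 0.64 and 0.92 and did not fall with host length. No test was made of these medians.

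**Figure D5:**
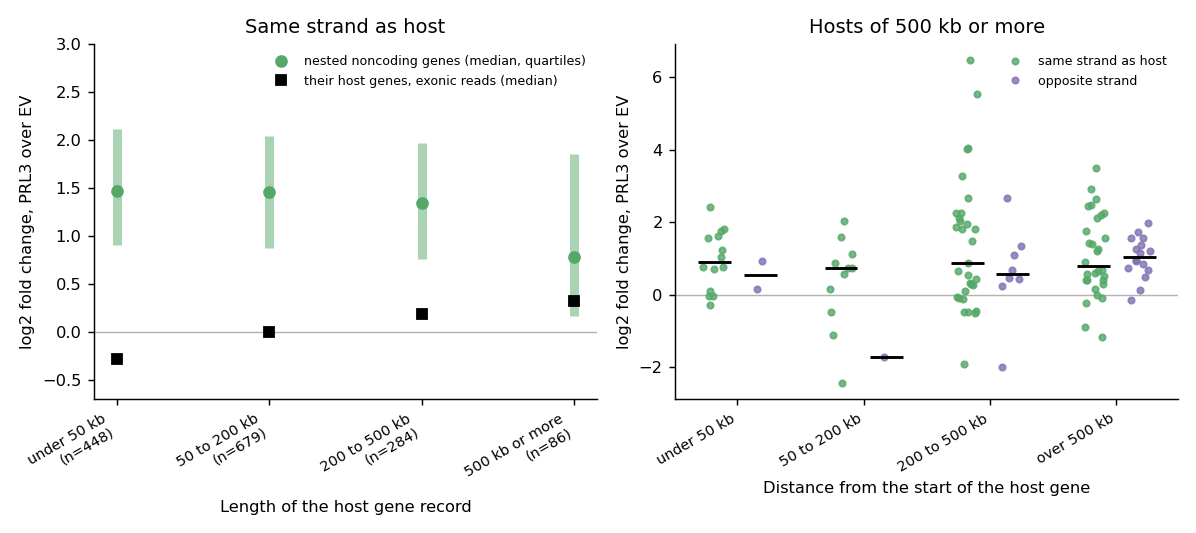
On the left, noncoding genes other than pseudogenes inside introns on the host's strand, by the length of the host: green points and bars are the median and quartiles of the nested genes' log2 fold change, and black squares the median of their hosts' exonic values; the distance between the symbols shrinks as hosts lengthen. On the right, each point is a nested gene of a host of 500 kb or more, by its distance from the host's start, with black lines at the medians (0.92, 0.73, 0.87 and 0.80 for the same strand).

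Inside the long genes the nested values were read by their distance from the host's start. The same-strand median was 0.92 for 14 genes within 50 kb of the host's start, 0.73 for 11 at 50 to 200 kb, 0.87 for 31 at 200 to 500 kb and 0.80 for 30 beyond 500 kb, with 3, 1, 8 and 5 higher. With pseudogenes included it was 0.84, 0.69, 0.79 and 1.21, and on the opposite strand, without pseudogenes, 0.56 (2 genes), -1.71 (1), 0.57 (8) and 1.05 (16). No trend with distance was tested. By the call of the host, in hosts called higher the median was 1.49 (32 nested genes, 9 higher), in hosts not called 0.61 (49, 8 higher), and in hosts called lower -0.08 (5, none higher, 1 lower). Over the 56 hosts, the host's log2 fold change and the median of its nested genes had a Spearman correlation of 0.393, as a description over hosts that share the same 6 libraries. Among them were transcripts that the annotation names after the intron of their host. DPYD-IT1, 587.9 kb into DPYD, had 17.1, 15.6 and 4.55 normalized counts in EV and 107, 82.6 and 91.1 in PRL3, while DPYD itself, the first enzyme of pyrimidine breakdown, went from 3438, 2916 and 3600 to 4298, 5444 and 5670. The log2 fold changes were 2.93 for the intronic transcript and 0.63 for the exons. FOXP1-IT1, 11.6 kb into FOXP1, had 48.7, 42.1 and 23.6 in EV and 95.8, 132 and 174 in PRL3, a log2 fold change of 1.81 against 1.15 for FOXP1. Of 12 tested transcripts with such names, 3 were higher (25.0%), none was lower, and 9 had a log2 fold change above 0. Of all noncoding genes other than pseudogenes 29.8% were higher, and of those outside the introns examined 25.7%.

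On the opposite strand, 27 nested genes other than pseudogenes were tested in 22 hosts, with 7 higher (25.9%), none lower and a median of 0.92. That share was below the 29.8% of all noncoding genes other than pseudogenes and close to the 25.7% of those outside the introns examined. Scaled to all uniquely aligned reads, 2 were higher and 1 lower, and the count of higher genes was 4 without EV B2 or PRL3 B9 and 3 without PRL3 B10 or B11. DLGAP1-AS2, antisense to DLGAP1, had 1481, 1298 and 2092 in EV and 3561, 2717 and 3155 in PRL3, a log2 fold change of 0.95, and DLGAP1-AS1 one of 0.75. Both moved by less than the 3.10 of DLGAP1. PTPRD-AS1 had 23.1, 15.6 and 11.8 in EV and 34.0, 55.1 and 62.2 in PRL3, a log2 fold change of 1.58 beside 1.53 for PTPRD. Of 25 opposite-strand pseudogenes, 16 were lower and none higher, with a median of -2.58. The 58 pseudogenes on the host's strand went the other way, with 7 lower, 15 higher and a median of 0.91. Over all 2861 pseudogenes tested 24.2% were lower and 21.9% higher, with a median of 0.22. Differences from that background were not tested. Reads of the genes that they are copies of may count on them.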

How the data were processed

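After FastQC 0.11.3, the authors used STAR 2.5.1b for alignment to GRCh38, and they deposited raw counts per Ensembl gene from htseq-count 0.6.1 (reverse strand, exons); 1 file per library, no normalization. Record lengths, exons and strands came from GENCODE v44 (57532 of 58243 identifiers matched). The comparison of counts used edgeR 4.0.16 under R 4.3.3 (TMM scaling, filterByExpr, quasi-likelihood test, Benjamini-Hochberg over 23884 genes, threshold 0.05). A normalized count is the count scaled to the mean of the 6 TMM-adjusted library sizes. Alternatives were DESeq2 1.42.0, limma-voom (limma 3.58.1), other scalings, filters and length rules, and leaving out each library; reads on no exon entered only as a scaling alternative. The test was tried on simulated data with known changes. Promoters are RefSeq GRCh38.p14. The members and lists were chosen with earlier results of these data known; the GC classes, the split of nested genes by pseudogene and host length, and the read minimum left out were added later. Named genes are the 10 higher and 10 lower with the smallest p whose groups do not overlap, the 5 longest, the 5 with the highest mean, those next to 500 kb, and the 2 of smallest p per list; others in the text were chosen after their values were seen. The median standard error of the log2 fold change was 0.197 for the long genes. Some named items are not reported here.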

Additional observations from a re-analysis of the deposited data

Results flagged for a closer look

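The 81 long protein-coding genes left out for too few reads are described here because the counts above do not use them. Their summed normalized counts were 570, 635 and 792 in EV B1, B2 and B3 and 1212, 1252 and 1320 in PRL3 B9, B10 and B11, so the PRL3 mean was 1.89 times the EV mean and the groups did not overlap. PLCL1 alone supplied most of that rise: without it, a choice made after seeing the data, the sums were 564, 614 and 757 in EV and 935, 917 and 932 in PRL3, a ratio of 1.44. Of the 81 genes, 22 had at least 10 reads in every PRL3 library and 4 in every EV library, 55 fell short in both groups, and 5 had no read at all. In edgeR's fit 30 were tested, 5 higher (16.7%) and none lower (Benjamini-Hochberg adjusted p under 0.05), against 20.0% higher and 22.7% lower over all genes tested. SGCZ, a sarcoglycan, had 0, 0 and 0.909 normalized counts in EV and 87.5, 64.7 and 37.5 in PRL3. PLCL1, a phospholipase C relative without catalytic activity, had 6.09, 21.7 and 34.6 in EV and 277, 335 and 388 in PRL3, a log2 fold change of 3.96 (standard error 0.454). CNTN5, RIMS1 and ANKS1B were the other 3. SGCZ and CNTN5 entered the test only through their PRL3 reads. PLCL1, RIMS1 and ANKS1B had fewer than 10 reads in 1 EV library each and in no PRL3 library. A gene that passes in 1 group only had to differ, so these counts support nothing and describe what the read minimum left out. No sample of a named gene could be tested as an outlier, since each group has 3 libraries.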

How the results depend on the processing

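The long genes' median minus that of protein-coding genes under 50 kb was 0.78 and stayed between 0.76 and 0.85 when single libraries were left out. The zero of the fold changes depends on the scaling: the median of all genes tested was 0.11 with TMM, 0.07 with RLE, 0.29 with upper-quartile, 0.60 with library size alone and -0.36 with all uniquely aligned reads. With all uniquely aligned reads, 43 long genes were lower and 28 higher, and over all 23884 genes tested 8473 were lower and 1952 higher. With that scaling the medians were -0.089 for the long genes, 0.35 for same-strand and -0.32 for opposite-strand nested genes, pseudogenes included (main values 0.38, 0.82 and 0.15). The median was then -0.016 for fragile site genes, -0.17 for channels, -0.21 for signalling genes and -0.20 for genes in no list, and ITPR2 (-0.32), DLG2 (-0.22), DOCK1 (-0.025), CACNA2D1 (-0.24) and CSMD1 (-0.084) turned negative. With library size alone, 4 long genes were lower and 148 higher, and over all 23884 genes tested 3078 were lower and 9514 higher. The medians of the long genes and of same-strand and opposite-strand nested genes were 0.87, 1.33 and 0.65. KCNAB1 (0.30) and MACROD2 (0.33) turned positive. MACROD2 also did with protein-coding genes only (0.014) and upper-quartile scaling (0.014), and both did without EV B1. Leaving out single libraries gave -0.37 to 0.14 for KCNAB1 and -0.42 to 0.12 for MACROD2. Upper-quartile scaling left 11 long genes lower (4475 of all 23884 genes tested) and an adjusted p of 0.01 left 8 (4144 of all). From 400 kb 119 were higher, and from 1 Mb 19 of 44 were higher and 1 lower. Over all 23884 genes tested, 4783 were higher and 5426 lower in that fit. Leaving out single libraries gave 10 to 20 long genes lower and 57 to 81 higher. Over the 24743 to 25070 genes tested in those fits, 4306 to 5869 were lower and 3200 to 5940 higher. The medians were 0.36 to 0.42 for the long genes, and 0.78 to 1.19 for same-strand and -0.088 to 0.19 for opposite-strand nested genes, the last below 0 without EV B2. Without pseudogenes, leaving out single libraries gave medians of 0.74 to 1.18 (same strand) and 0.75 to 1.05 (opposite). No long gene changed its called direction in any fit. DESeq2 kept 74 of the 76 higher and all 17 lower genes. No paired analysis was possible because the EV and PRL3 libraries share no replicate numbers. With 3 libraries a group and 10 reads as the minimum, changes of low genes can be missed.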
